A study of Mus musculus with 236 samples.

Results

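Expression of the Nodal and BMP signalling genes was followed in mouse embryonic stem cells over the first days after differentiation was started. The set holds 10 genes, taken by name from the 39300 genes of the deposited table of unique molecular identifiers (UMIs, tags that count each captured RNA molecule once). They are the ligands Nodal and Bmp4, the Nodal antagonists Lefty1 and Lefty2, the signal transducer Smad3, the inhibitors Smad7 and Skil, and the BMP target genes Id1, Id2 and Id3. No measured value entered the choice of the genes by rule, although earlier results of these data were known when the set was drawn up.

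The cells were of 1 female line, made from blastocysts of a C57BL/6J mother and a CAST/EiJ father. They had been kept on gelatin in serum medium with LIF, the GSK3 inhibitor CT99021 and the MEK inhibitor PD0325901. Both groups had LIF and both inhibitors withdrawn and were plated on fibronectin in medium that still held serum. The first group was taken at day 0.5 and the second at day 2.5, so neither is an undifferentiated culture. RNA and chromatin contacts were read from the same cells with HiRES, and only the RNA is described here. The 236 libraries name 471 cells, at most 2 to a library, and no cell appears in more than 1 library. Of these cells 406 were in the UMI table, 201 from day 0.5 and 205 from day 2.5.

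Nodal is a ligand of the TGF-beta family that acts through type I and type II receptors and a co-receptor, and leads to phosphorylation of Smad2 and Smad3. The pathway switches on its own brakes: the secreted antagonists Lefty1 and Lefty2, the inhibitory Smad7 and, in many cells, the nuclear repressor Skil. BMP4 acts through other receptors on Smad1, Smad5 and Smad9 and raises the Id genes, which block basic helix-loop-helix factors. BMP4 with LIF helps to hold mouse embryonic stem cells in self-renewal, whereas Nodal signalling is a feature of the epiblast that such cells form when they leave that state.

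Both ligands passed the rule for a change between the days given below, in opposite directions. Their start regions are shown because a RefSeq promoter entry was given for these members. Nodal lies at chr10:61417972-61425338 on the plus strand and Bmp4 at chr14:46383525-46390669 on the minus strand of GRCm38. The 250 bases upstream of each start, from RefSeq on build GRCm38.p6, are at chr10:61417722-61417971 and chr14:46390670-46390919. They are printed 5′ to 3′ along the gene, with CG dinucleotides in capitals.
Nodal: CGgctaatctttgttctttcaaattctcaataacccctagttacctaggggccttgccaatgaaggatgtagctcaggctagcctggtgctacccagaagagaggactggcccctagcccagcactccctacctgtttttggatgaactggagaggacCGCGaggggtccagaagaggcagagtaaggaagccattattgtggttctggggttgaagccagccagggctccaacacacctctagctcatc
Bmp4: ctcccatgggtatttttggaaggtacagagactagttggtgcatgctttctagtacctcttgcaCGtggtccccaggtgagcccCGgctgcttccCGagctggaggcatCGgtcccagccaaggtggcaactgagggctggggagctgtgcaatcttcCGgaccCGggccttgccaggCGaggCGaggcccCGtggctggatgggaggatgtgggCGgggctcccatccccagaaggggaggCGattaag
The Nodal stretch holds 3 CG dinucleotides and 53.2% G and C, and the Bmp4 stretch 11 and 63.2%. Over 32851 RefSeq promoters of the mouse, the median was 6 CG dinucleotides and 52.4% G and C in the same window. Both strands of the stretches were searched for CAGAC (the SMAD box), GGCGCC (a GC-rich SMAD site) and AATNNACA (a FOXH1 site). No match to these 3 words was found in either stretch. Among all promoters 42.2%, 9.59% and 10.9% held them, in that order. The absence of a match says only that these letters do not stand in this window.

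The median depth was 13670 UMIs a cell at day 0.5 (501 to 23213) and 15796 at day 2.5 (529 to 29275). The deposited cell table places each cell in 1 of 3 labelled sets, called batches here because the sources do not say what the labels stand for. Day 0.5 cells fell in batches 1 and 2 and day 2.5 cells in batches 2 and 3, so that batch 2 spans both days. As no separate cultures are named, each day counts as 1 sample, so no test across cells was made. All intervals are 95% and cover counting error only. UMIs on exons were 26.3% of the total at day 0.5 and 24.2% at day 2.5, so most UMIs lay outside exons. Of the embryonic stem cell markers, Pou5f1, Sox2, Nanog, Sall4, Esrrb and Zfp42 were all detected, and their summed level was 960 CPM (UMIs scaled to the same total at each day) at day 0.5 and 201 CPM at day 2.5. The lists for primitive endoderm, trophectoderm, primitive streak, neural and fibroblast cells each summed to 17.9 CPM or less at both days. Foxa2, Mesp1, Hand1, Postn and the 4 two-cell-like markers were at 0 in all cells, and the part of other cell types in the results was not tested.

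Between the days, Skil and Nodal rose and Bmp4 fell, while Smad3, Smad7 and Id2 did not pass the rule in either direction. A gene was called when its CPM at day 2.5 and at day 0.5 stood in a ratio of at least 1.5 either way, with 20 or more UMIs in all and the same direction within batch 2. Over all genes, 13777 had enough UMIs, of which 21.1% were called higher at day 2.5, 25.2% lower and 46.3% either way. Of the 10 members 6 had enough UMIs, with 2 called higher, 1 lower and 3 neither, so the share of called members was close to that of all genes. The other 4 members, Lefty1, Lefty2, Id1 and Id3, were under the minimum. In bulk sums of this kind, fewer cells with a transcript and less RNA per cell cannot be told apart, so shares of cells are given beside the levels.

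**Figure D1:**
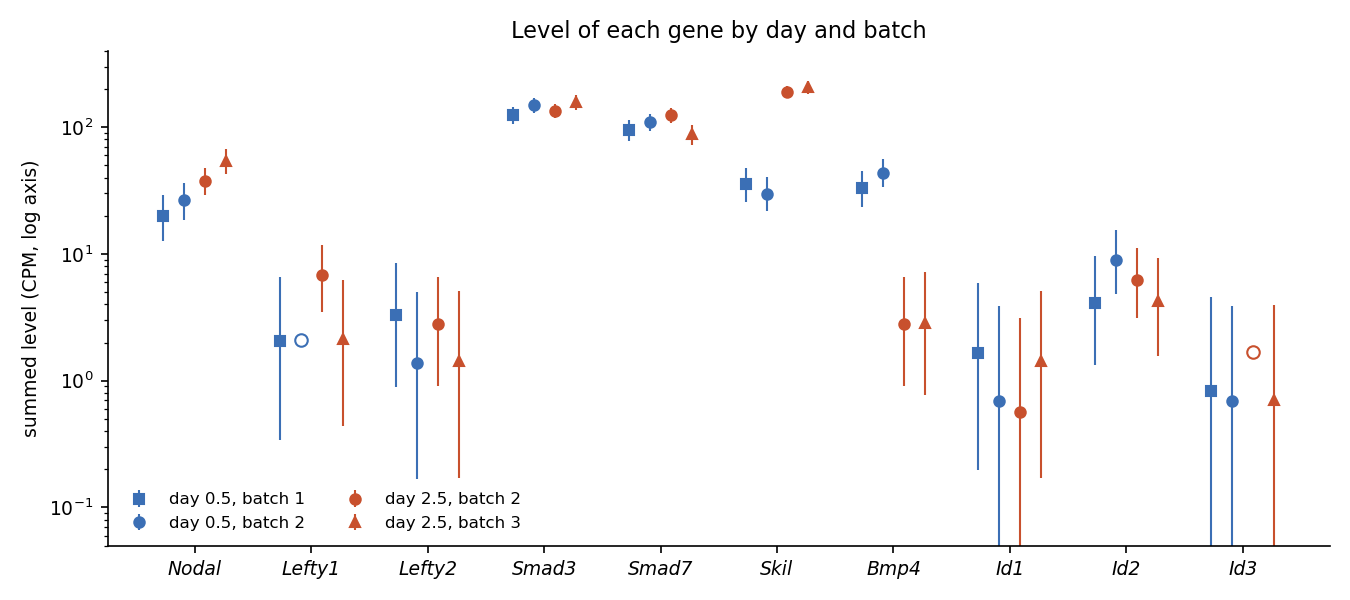
Summed level of each gene in CPM on a log axis, with exact Poisson 95% intervals (cut at the axis where they run below it), for day 0.5 in batches 1 and 2 (blue) and day 2.5 in batches 2 and 3 (red). An open symbol marks a count of 0, drawn at the level of 3 UMIs. Skil at day 2.5 sits at 191 and 207 CPM, above 29.9 and 35.4 CPM at day 0.5, and Bmp4 falls from 32.9 and 43.7 CPM to 2.82 and 2.83 CPM.

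Nodal, the ligand, was counted 62 times at day 0.5 and more often, 143 times, at day 2.5. Single cells at day 0.5 held from 0 to 3 UMIs with a median of 0, and those at day 2.5 from 0 to 7 with a median of 0. The summed level was 23.3 CPM (17.9 to 29.9) at day 0.5 and 44.9 CPM (37.8 to 52.9) at day 2.5, a ratio of 1.92 (1.42 to 2.63). By batch, Nodal stood at 19.7 and 26.4 CPM at day 0.5 and at 37.7 and 53.9 CPM at day 2.5. The batches of the days thus did not overlap, as held for 30.7% of all tested genes in this direction. Within batch 2 the ratio was 1.43 (0.947 to 2.19), which is under 1.5, so the call is lost when only that batch is used.

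Cells with a Nodal UMI made up 24.4% (49 cells; 18.6 to 30.9%) at day 0.5 and 38.5% (79 cells; 31.8 to 45.6%) at day 2.5. With each cell thinned to 5000 UMIs, which leaves out 7 cells of each day, the shares were 10.8% and 16.5%. The rise was thus seen at equal depth. Cells with at least 2 Nodal UMIs numbered 11 at day 0.5 and 33 at day 2.5. No library held more than 6.45% of the Nodal UMIs of its day.

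The letters A and B in the cell names, which no source used here explains, gave different changes of Nodal. In letter A cells Nodal was at 23.4 CPM at day 0.5 and 47.03 CPM at day 2.5. In letter B cells, 42 and 32 in number, it was at 23.1 CPM (8 UMIs) and 26.7 CPM (9 UMIs). The interval at day 2.5 in letter B, 12.2 to 50.8 CPM, takes in the letter A level.

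Lefty1 and Lefty2 encode secreted antagonists that block Nodal and its co-receptor. They are similar genes that lie close together at chr1:180935022-180938401 and chr1:180893108-180899107, so reads shared between them may have been split or dropped by the counting. Lefty1 had 2.5 UMIs at day 0.5, with no cell above 2, and 15 UMIs at day 2.5, with no cell above 3. Its level was 0.941 CPM (0.156 to 3.01) and then 4.71 CPM (2.64 to 7.77), a ratio of 5.00 (1.30 to 33.2) on counts under the minimum. Of the 15 UMIs at day 2.5, 12 lay in batch 2, where day 0.5 cells had none. Set against a floor of 3 UMIs per batch, the level of Lefty1 in batch 2 at day 2.5 was 3.25-fold higher. With counting error at both days, the interval of the batch 2 ratio starts at 2.25 and has no upper bound. In the batches that held only 1 day the levels were 2.06 CPM (batch 1, day 0.5) and 2.13 CPM (batch 3, day 2.5), so the higher count rests on batch 2.

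A Lefty1 UMI was found in 1 cell at day 0.5 and in 12 cells (5.85%; 3.06 to 10.0%) from 12 libraries at day 2.5. Lefty2 was found in 6 cells (2.99%) and 7 cells (3.41%), with 1 UMI in each. Its level was 2.26 CPM (0.829 to 4.92) at day 0.5 and 2.20 CPM (0.883 to 4.53) at day 2.5. Beside this, the 28 marker genes of other lineages had a median share of 0% at day 0.5 and 0.488% at day 2.5. Of these genes 6 at day 0.5 and 5 at day 2.5 had a share at or above that of Lefty2, led by Gata4 at 13.4% and 11.7%. The shares of Lefty1, Lefty2, Id1, Id2 and Id3 at both days thus lie within the range of genes that mark other lineages. The share of Bmp4 at day 2.5, 3.90%, does so too. The top of that range is set by Gata4. At day 2.5 the next highest marker was Krt18 at 4.88%, below Lefty1 and level with Id2. At day 0.5 only Gata4 and Gata3 (10.4%) stood above Id2, which was at 6.97%. A lncRNA model, Gm39715, overlaps Lefty1, and the models Gm51710 and Gm41776 overlap Smad3 and Smad7. No source used here says whether strand was used in counting.

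Smad3, which carries the Nodal and activin signal to the nucleus, was one of the more widely detected members. It lies at chr9:63646766-63757994, the longest span of the set at 111.2 kb. Single cells held from 0 to 14 UMIs at day 0.5 and from 0 to 19 at day 2.5, with a median of 1 at both. The level was 137 CPM (123 to 152) at day 0.5 and 144 CPM (131 to 158) at day 2.5, a ratio of 1.05 (0.916 to 1.21). The interval excludes a change of 1.5 in either direction as far as counting error goes. The batches overlapped, at 124 and 148 CPM at day 0.5 and 134 and 158 CPM at day 2.5, and within batch 2 the ratio was 0.903 (0.747 to 1.09). A Smad3 UMI was found in 56.2% of cells at day 0.5 and 61.5% at day 2.5, or 37.5% and 40.5% at equal depth.

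Smad7 blocks type I receptors and is a feedback inhibitor of the pathway. Single cells held from 0 to 14 UMIs at both days, with a median of 1. Its level was 102.6 CPM (90.8 to 115.5) at day 0.5 and 107.97 CPM (96.9 to 120) at day 2.5, a ratio of 1.05 (0.895 to 1.24). The batches at day 2.5 stood farther apart than the days did, at 124 CPM in batch 2 and 87.5 CPM in batch 3. At day 0.5 they were at 94.6 and 109.3 CPM. Cells with a Smad7 UMI were 54.7% and 64.9%, and 32.7% and 35.97% at equal depth.

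Skil encodes SnoN, a repressor that binds Smad complexes on DNA and is destroyed when the pathway is active. It changed most among the members that rose. Single cells held from 0 to 8 UMIs at day 0.5 with a median of 0, and from 0 to 15 at day 2.5 with a median of 2. The level was 32.4 CPM (25.9 to 40.0) at day 0.5 and 198 CPM (183 to 214) at day 2.5, a ratio of 6.11 (4.87 to 7.75). Within batch 2 the ratio was 6.39 (4.64 to 8.99), and the batches of the days lay far apart. In letter B cells the levels were 43.3 and 168 CPM.

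Detection of Skil rose with its level. A UMI was found in 28.9% (58 cells; 22.7 to 35.6%) at day 0.5 and 87.8% (180 cells; 82.5 to 91.95%) at day 2.5. At equal depth the shares were 14.2% and 57.01%. Cells with at least 5 Skil UMIs numbered 2 at day 0.5 and 47 at day 2.5. At day 2.5 the library with the most Skil UMIs held 3.57% of them. The gene lies at chr3:31095058-31122923, and no RefSeq promoter entry for it was used.

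Bmp4 went the other way. Single cells held from 0 to 5 UMIs at day 0.5 and from 0 to 2 at day 2.5, with a median of 0 at both. The summed level was 38.8 CPM (31.7 to 47.03) at day 0.5 and, from 9 UMIs, 2.82 CPM (1.29 to 5.36) at day 2.5. Bmp4 was thus 13.7-fold lower at day 2.5 (6.96 to 30.9). Within batch 2 the ratio of day 2.5 to day 0.5 was 0.0644 (0.0202 to 0.158), and the batches did not overlap, as held for 37.1% of tested genes in this direction. In letter B cells Bmp4 was at 28.8 CPM (10 UMIs) at day 0.5 and 8.91 CPM (3 UMIs) at day 2.5.

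Cells with a Bmp4 UMI were 31.3% (63 cells; 25.0 to 38.2%) at day 0.5 and 3.90% (8 cells; 1.70 to 7.54%) at day 2.5. At equal depth the shares were 15.7% and 1.24%. The Bmp4 UMIs of day 0.5 came from 58 libraries, none with more than 5. The lncRNA models Gm15217 and Gm15222 overlap Bmp4, and had 1 and 2 UMIs at day 0.5 and 1 and 0 at day 2.5.

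**Figure D2:**
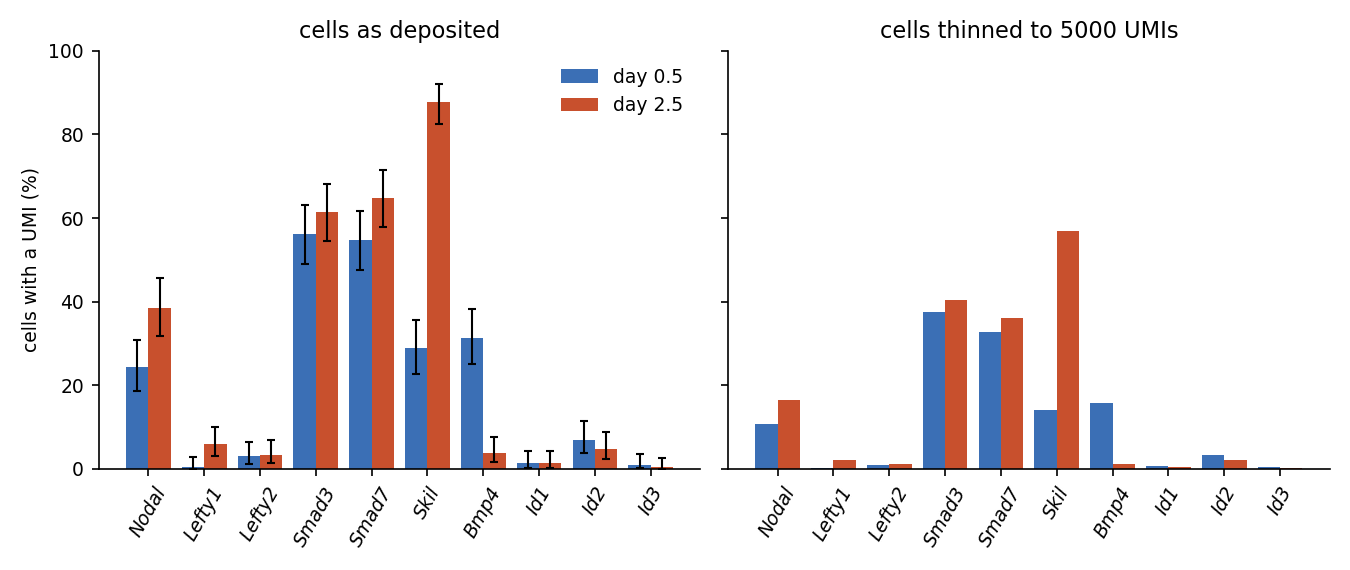
Percent of cells with at least 1 UMI of each gene at day 0.5 (blue, 201 cells) and day 2.5 (red, 205 cells), with Clopper-Pearson 95% intervals at left, and after thinning each cell to 5000 UMIs at right (194 and 198 cells, no intervals). Skil rises from 28.9% to 87.8% and from 14.2% to 57.01%, Bmp4 falls from 31.3% to 3.90% and from 15.7% to 1.24%, and Nodal rises less in both panels.

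Id1, Id2 and Id3, the classic BMP targets, were close to the limit of this assay at both days. Id2 had 18 UMIs in 14 cells at day 0.5 and 17 UMIs in 10 cells at day 2.5. Its level was 6.78 CPM (4.02 to 10.7) and 5.34 CPM (3.11 to 8.54), a ratio of 0.787 (0.381 to 1.62). At day 2.5, 5 of the 17 Id2 UMIs lay in 1 cell. Id1 had 3 UMIs at each day and Id3 had 2 and 1, each in as many cells. The ratio intervals are wide, at 0.112 to 6.22 for Id1 and 0.00706 to 8.01 for Id3. The Bmp4 ratio, 0.0728, lies within that of Id3 and below that of Id1.

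To compare the members with each other, levels were divided by gene length, as CPM per kb of RefSeq span. Whether UMIs scale with span in these data was not tested. Without the division Smad3 stood at 144 CPM at day 2.5 and Id2 at 5.34 CPM, the reverse of their order per kb. At day 2.5 Skil was highest at 7.10 CPM per kb (6.56 to 7.68) and Nodal next at 6.09 (5.13 to 7.18), with overlapping intervals. Smad7 followed at 3.78 (3.39 to 4.20) and Id2 at 2.33 (1.35 to 3.72), which also overlap. Lefty1 at 1.39 and Smad3 at 1.30 CPM per kb could not be told apart. Id1 stood at 0.812, Bmp4 at 0.395, Lefty2 at 0.366 and Id3 at 0.200 CPM per kb, all with wide intervals. At day 0.5 the order was led by Bmp4 at 5.43 CPM per kb (4.43 to 6.58), then Smad7 at 3.59, Nodal at 3.17 and Id2 at 2.95. Over both days Nodal lay at percentile 94.2 of 24008 genes on this scale. Id1 and Id3, with spans of 1.16 and 1.57 kb, lay at percentiles 68.1 and 50.4 on counts of 6 and 3 UMIs. Their intervals at day 2.5 were 0.167 to 2.37 and 0.00506 to 1.11 CPM per kb. Both take in the median of all genes over both days, 0.317, so their place beside that median is not settled.

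The authors' cell cycle classes showed that some members differ between cells of 1 day. The classes were looked at after values had been seen, and each rests on 1 sample a day. Cells of a class were set against all other cells of the same day, and a gene was counted when the ratio passed 1.5 the same way at both days. Smad3 and Bmp4 were higher in G1 cells, 2 of the 6 members with enough UMIs, against 4.62% of all tested genes. No member was lower in G1 at both days (4.91% of genes) or higher in Mid-S (2.77%). Smad3 in G1 was at 228 CPM against 116.2 CPM in other cells at day 0.5, a ratio of 1.96 (1.55 to 2.45). At day 2.5 it was at 192 against 117.7 CPM, a ratio of 1.64 (1.36 to 1.97). Without the G1 library that held the most Smad3 UMIs the ratios were 1.76 and 1.54. G2 cells also stood high at day 0.5, at 287 CPM from 22 UMIs in 6 cells, and at 133 CPM in 18 cells at day 2.5.

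Bmp4 in G1 was at 58.4 CPM against 34.3 CPM in other cells at day 0.5, a ratio of 1.70 (1.07 to 2.65). Late-S cells were as high, at 64.9 CPM, while Mid-S cells were at 24.4 CPM, a ratio of 0.476 (0.301 to 0.738) to the rest. At day 2.5 the G1 value rests on 5 UMIs. Without the library with the most Bmp4 UMIs in G1 the ratio at day 2.5 is 1.37, so the count for Bmp4 depends on that library. Bmp4 and Id2 were lower in Mid-S cells at both days, against 5.96% of tested genes. For Bmp4 the Mid-S value at day 2.5 rests on 1 UMI, with a ratio of 0.246 (0.00553 to 1.83). For Id2 the Mid-S values rest on 6 and 2 UMIs.

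Nodal was highest in cells classed as M. At day 0.5 it was at 99.5 CPM in 15 M cells (11 UMIs) against 20.04 CPM in other cells, a ratio of 4.97 (2.33 to 9.65). At day 2.5 it was at 237 CPM in 7 M cells (10 UMIs) against 42.3 CPM, a ratio of 5.61 (2.63 to 10.6). The M cells held fewer UMIs, with medians of 5818 and 4819 against 13931 and 15920 in other cells. A rise of this kind in M cells was found for 17.5% of tested genes, so 1 of 6 members is near that share. Without M cells Nodal still passed the rule, as an alternative chosen after the data were seen. Among the classes with at least 10 cells at both days, Nodal was higher at day 2.5 in each. It went from 22.2 to 33.4 CPM in G1, 19.1 to 72.8 in Early-S, 18.7 to 49.3 in Mid-S and 12.4 to 27.3 in Late-S. G2, with 6 cells at day 0.5, went the other way, from 65.2 CPM (5 UMIs) to 39.9 CPM.

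Skil was high in all 7 day 2.5 classes. It ran from 140 CPM in G2 to 222 CPM in Late-S, with 291 CPM in the 4 G0 cells (15 UMIs) and 570 CPM in the 7 M cells (24 UMIs). At day 0.5 it lay between 14.3 CPM in Early-S and 39.8 CPM in Mid-S. Its classes therefore did not overlap between the days. The authors also gave a pseudotime, an order of the cells along differentiation, for 186 of the day 0.5 and 122 of the day 2.5 cells. Cut at its median within each day, Skil was at 32.6 and 31.9 CPM in the earlier and later cells at day 0.5 and at 198 and 216 CPM at day 2.5. Nodal was at 17.9 and 22.001 CPM at day 0.5 and 37.2 and 49.3 CPM at day 2.5, with overlapping intervals in each pair. Bmp4 was at 39.9 and 37.9 CPM at day 0.5. The 15 day 0.5 cells without a pseudotime matched the M class in number and total UMIs, and held Nodal at 99.5 CPM. At day 2.5, 83 cells had no pseudotime, with Nodal at 47.03 CPM.

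**Figure D3:**
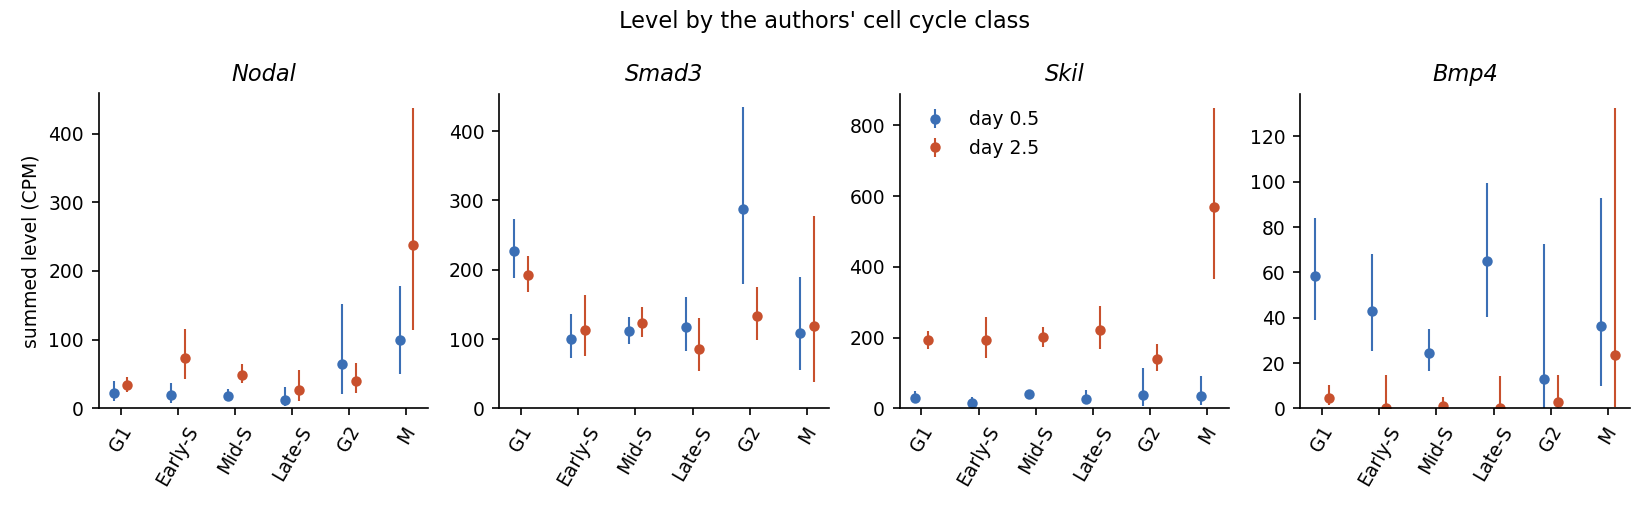
Summed level in CPM of Nodal, Smad3, Skil and Bmp4 by the authors' cell cycle class at day 0.5 (blue) and day 2.5 (red), with exact Poisson 95% intervals. Each panel has its own axis from 0. Nodal peaks in M cells at both days (99.5 and 237 CPM), Smad3 is high in G1 (228 and 192 CPM), and Skil at day 2.5 lies above day 0.5 in every class drawn.

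Whether members were found in the same cells was read from counts of cells with UMIs of both genes of a pair, set beside the number that the product of their shares gives. Of the 45 pairs, 12 at day 0.5 and 15 at day 2.5 had a product of at least 5 cells. Observed counts were close to the products, with a median ratio of 1.02 at both days. The ratios ran from 0.770 to 1.17 at day 0.5 and from 0.488 to 1.16 at day 2.5. With products taken within quartiles of depth, 6 of 12 and 9 of 15 pairs lay above them. Both genes of a pair are read at the depth of the same cell, depth differs between cells, and some cells share a library. No test was made.

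Nodal and its antagonist Lefty1 were found together in 7 cells at day 2.5, beside a product of 4.62 cells, and in 0 cells at day 0.5. Those 7 are 58.3% of the Lefty1 cells. The exact interval of the count, from 2.81 upward, takes in the product. Nodal and Skil, both higher at day 2.5, shared 71 cells then, beside 69.4, and 12 at day 0.5, beside 14.1.

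Nodal and Bmp4, the ligands, shared 18 cells at day 0.5, beside a product of 15.4, and 16.5 within depth quartiles. Thinned to equal depth the count was 3.24 beside 3.28, and at day 2.5 the pair shared 2 cells beside 3.08. The interval of the day 0.5 count (10.7 to 28.4) takes in its products. Skil and Bmp4, which moved in opposite directions between the days, shared 14 cells at day 0.5 beside 18.2, and 5 at day 2.5 beside 7.02. The intervals of both counts take in the products. Smad3 and Smad7 shared 63 cells beside 61.8 at day 0.5 and 84 beside 81.7 at day 2.5.

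Taken per cell, 14 cells at day 0.5 and 4 at day 2.5 had no UMI of any member. Their medians were 7566.5 and 5338 UMIs, but not all were shallow. The deepest held 15015 UMIs at day 0.5 and 15860 at day 2.5, above the medians of all cells of those days. Cells with Smad3, Smad7 and Skil together rose in number from 20 (9.95%) to 78 (38.05%). The share of cells with Skil alone rose from 28.9% to 87.8%. No product of shares was set beside the counts of all 3, so they do not say whether the genes came together. No cell at either day had UMIs of more than 1 Id gene. The products of shares for pairs of Id genes were at most 0.209 cells at day 0.5 and 0.146 at day 2.5. With shares this low, the absence of such cells does not say that the Id genes keep to separate cells.

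**Figure D4:**
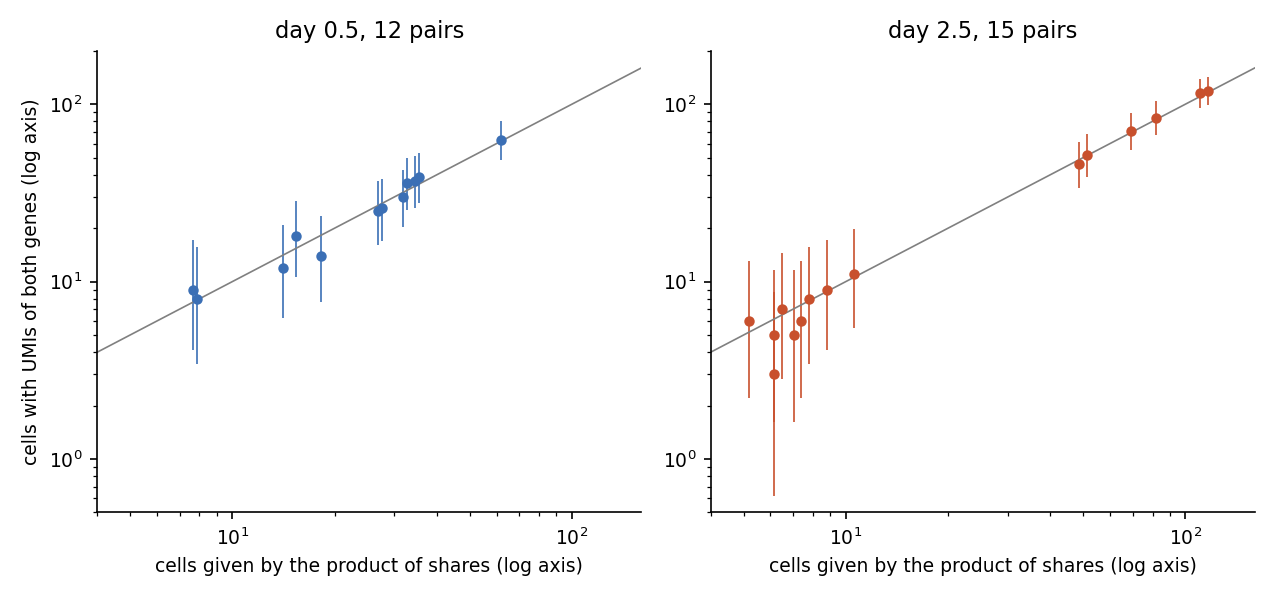
Cells with UMIs of both genes of a pair against the number given by the product of their shares, on log axes, for the 12 pairs at day 0.5 and 15 at day 2.5 whose product is at least 5. Bars are exact Poisson 95% intervals of the count and the grey line marks equality. The points follow the line at both days, with a median ratio of 1.02.

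The rest of the pathway was read from 86 further genes, grouped by role, of which 52 had enough UMIs. Of these 52 genes, 21 were called higher at day 2.5, 12 lower and 19 neither. Over all genes, 2910 of 13777 (21.1%) were called higher and 3469 (25.2%) lower. The share of pathway genes called higher was thus above that of all genes, and the share called lower slightly below it. The median log2 change was 0.31 (CPM + 5 scale), beside -0.06 over all tested genes. Its order-statistic interval over genes, -0.15 to 0.52, takes in that value, and without the minimum of UMIs the median was 0.05. The list was drawn up with earlier results known, so these counts are a description.

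Of the 16 listed ligands, which leave out the members Nodal and Bmp4, 9 were under the minimum. Among the 7 others 5 were lower, beside 25.2% of all genes. Bmp8a went from 87.7 to 10.4 CPM, Bmp6 from 144 to 61.7, Tgfb2 from 17.3 to 4.08 and Gdf3, a Nodal-like ligand of pluripotent cells, from 20.7 to 13.5 CPM. Bmp7 rose from 2 to 30 UMIs, a ratio of 12.5 (3.17 to 107.98), and Gdf11 from 5.27 to 13.5 CPM. Of the convertases that cut ligand precursors, Pcsk6 fell from 229 to 56.3 CPM. Furin was called higher, at 3.95 and 7.22 CPM from 10.5 and 23 UMIs. Its ratio of 1.83 (0.846 to 4.22) has an interval that takes in no change.

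Of the type I receptors 4 of 5 were higher and none lower. The BMP receptor Bmpr1b rose from 16.8 to 170 CPM, a ratio of 10.2 (7.47 to 14.1). Bmpr1a rose from 189 to 297 CPM, Acvr1 from 46.3 to 98.7 and the activin and Nodal receptor Acvr1b from 22.8 to 37.98. Of the type II receptors Bmpr2 rose from 140 to 264 CPM, and the other 3 were called neither. The Nodal co-receptor Tdgf1 was at 218 and 175 CPM and was called neither, while the BMP co-receptor Rgmb rose from 8.28 to 23.4 CPM.

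Among 5 antagonists outside the cell, Fst, which binds activin, rose from 1 to 44 UMIs, a ratio of 36.7 (6.25 to 1481). Twsg1 rose from 20.5 to 31.7 CPM and Fstl1 fell from 189 to 99.5 CPM. Of 5 Smads, the inhibitory Smad6 fell from 106.6 to 30.9 CPM and the BMP transducer Smad1 rose from 43.7 to 66.2 CPM. Smad2, Smad4 and Smad5 were called neither. Of 7 Smad partners and repressors, Tcf12, Tcf4, Ski and Tgif1 rose and Tgif2 fell. Ski, the closest relative of Skil, went from 86.6 to 186 CPM.

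Of 9 regulators inside the cell 3 rose and 2 fell. Zeb1 fell from 394 CPM in 169 cells with a UMI to 20.4 CPM in 35 cells, and its relative Zeb2 rose from 3.01 CPM in 5 cells to 62.1 CPM in 56 cells. Both encode zinc-finger repressors that bind Smads. Nedd4l, a ligase that marks Smad2 and Smad3 for destruction, fell from 684 to 251 CPM. Pmepa1, a feedback inhibitor of the TGF-beta pathway, rose from 39.2 to 123 CPM and Smurf2, a ligase of Smads and receptors, from 168 to 264 CPM. The other 4 were called neither.

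Of 17 listed targets only 4 had enough UMIs. Fgf5, an epiblast marker, rose from 3.01 to 120.7 CPM, Prdm1 from 6.40 to 42.1 CPM, Dusp9 fell from 25.0 to 13.97 CPM, and Eomes was called neither. Nog, Cer1, Foxh1, Gdf15, Gsc, Foxa2, Id4 and Hey1 were at 0 in all 406 cells, which allows a level of up to 0.514 CPM.

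**Figure D5:**
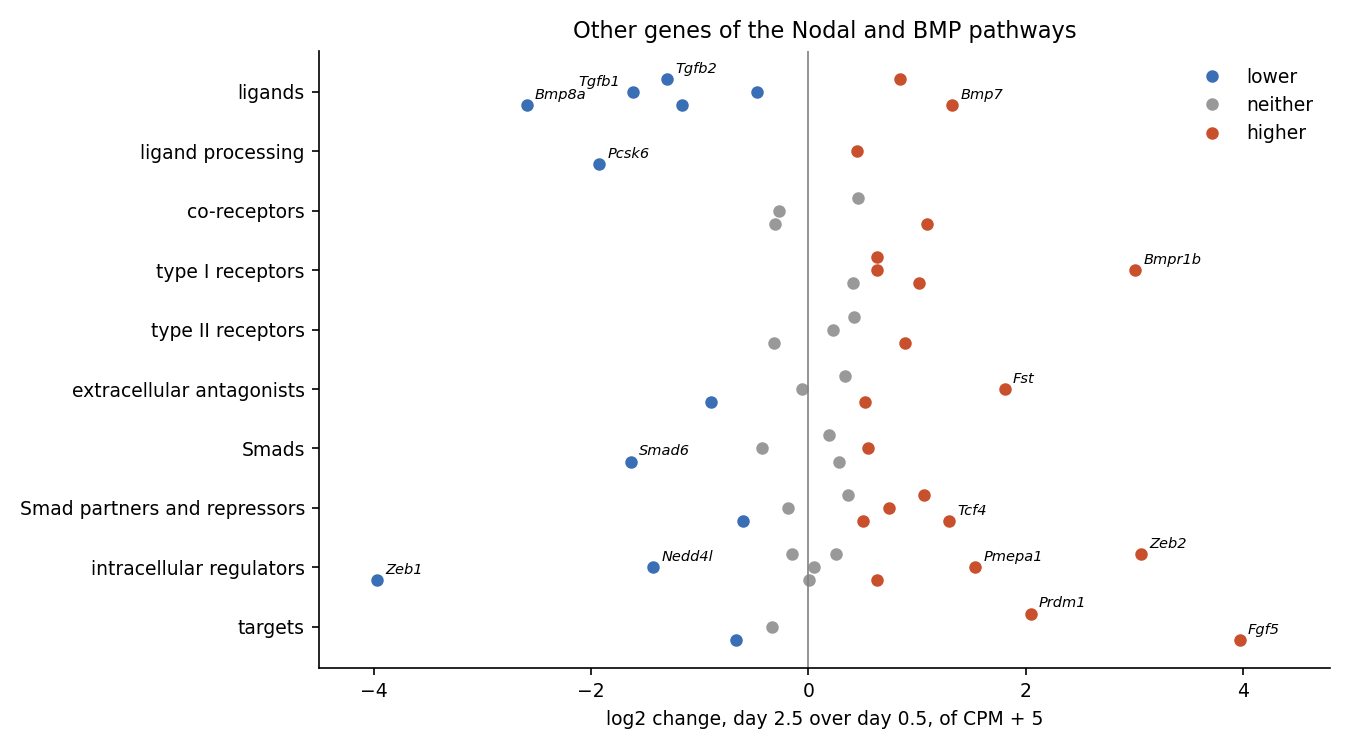
Log2 change of CPM + 5 between day 0.5 and day 2.5 for the 52 pathway genes with at least 20 UMIs, by role; each point is a gene, red when called higher at day 2.5, blue when lower and grey when neither. Points in a row are shifted up or down only for legibility, and genes past 1.2 in either direction are named, a limit chosen after the values were seen. Ligands lie mainly to the left (5 of 7 lower) and type I receptors to the right (4 of 5 higher).

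Finally, the genes most like Nodal and Bmp4 were found by Pearson correlation of log2(CPM + 5) over 10 profiles of day and cell cycle class, among 7716 genes with at least 100 UMIs. Nodal was most like Zbtb34 (r = 0.97) and Ctr9 (r = 0.94), and Ctr9 itself went from 59.5 to 89.8 CPM. Bmp4 was most like Fn1 (r = 0.98; 449 to 88.98 CPM), which encodes fibronectin, and Adap1 (r = 0.98; 127 to 4.71 CPM). For Nodal 10 genes had r above 0.9 and for Bmp4 245 had. Only classes with at least 10 cells gave a profile. M therefore entered for day 0.5 only, with 11 Nodal UMIs in 15 cells, and G2 for day 2.5 only. The profiles share their libraries and the M cells are few, so these values are a description only.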

How the data were processed

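RNA of 406 single cells was analysed. The values are expected counts of UMIs per gene and cell as deposited by the authors, and 11.1% of the values above 0 are fractions. Cell cycle classes and pseudotime scores were used as deposited by the authors. The submitters' processing notes name GRCm38 as the build. Not given in the sources used here are the aligner, the counter and the use of strand. The table held 1101 columns of no sample listed here, which were not used. UMIs were summed over the cells of a day and scaled to CPM with Python 3.11.15, pandas 2.3.3 and scipy 1.17.1. Levels have exact Poisson intervals, ratios exact conditional and shares Clopper-Pearson ones. PCR and cell-to-cell bursts are not covered by them. A cell had a gene at a value of at least 1. Thinned shares are the expected shares when 5000 UMIs are drawn per cell. Doublets were not called. Spans and promoters came from RefSeq on GRCm38.p6, with promoter entries for 5 of the 10 members. Named pathway genes are the called ones with the most UMIs, up to 4 in each role. Bmp7, Gdf11, Tgif2, Zeb2, genes called neither and genes at 0 fall outside that rule and were named after their values were seen. Members, lists and rules were chosen with earlier results of these data known. The calling script was tested on simulated counts. Alternatives covered scaling, minimum, ratio, pseudocount, thinning, batch, letter, cell cycle mixture and single libraries.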

Additional observations from a re-analysis of the deposited data

How the results depend on the processing

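Skil was called higher and Bmp4 lower under all 11 alternatives to the calling rule. Nodal was called higher under 9 of the 11. With a ratio of 2, or with only batch 2, 1 member was called higher in place of 2. Without a minimum of UMIs 2 members were called lower in place of 1, Id3 being added on 3 UMIs in all, and Lefty1 joined those called higher. Of the pathway genes 12 were called higher at a ratio of 2 and 20 lower without a minimum, in place of 21 and 12. The log2 change of Nodal ran from 0.18 (only letter B) to 1.14 (equal weight to cell cycle classes), that of Skil from 1.84 to 2.65 and that of Bmp4 from -3.38 to -1.28, and none of these changed sign. The changes of Smad3 ran from -0.41 (only letter B) to 0.16 and those of Smad7 from -0.01 to 0.66 (only letter B). Scaling by the median ratio of genes moved the median change of all genes from -0.06 to 0.00. Removal of M cells, of cells under 5000 UMIs, and of the library with the most UMIs of a gene for the calls, was chosen after seeing the data. No paired analysis was possible because no result comes from a test. Results for the Id genes and for Lefty1 and Lefty2 are limited by counts of 35 UMIs or fewer over both days. The reason for these low counts was not tested.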
